A study of Mus musculus with 20 samples.

Results

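Livers of NFIL3 KO mice given vehicle were set against livers of their WT littermates given the same vehicle, so that the effect of losing NFIL3 was read without acute endoplasmic reticulum stress (ERS). The comparison holds 10 of the 20 arrays of the series, 5 NFIL3 KO and 5 WT, chosen by genotype and treatment alone as the labels give them. NFIL3 KO mice were Nfil3-/- in every cell of the body, WT mice carried both alleles, and all were adult males of C57Bl6 background (C57BL/6J in the study's methods). Both groups received vehicle (150 mM dextrose) by intraperitoneal injection and the liver was taken 8 h later. The other 10 arrays are livers of 5 NFIL3 KO and 5 WT mice given tunicamycin at 1 µg/g body weight for 8 h, a drug that blocks protein glycosylation in the endoplasmic reticulum. Each array held the liver RNA of 1 mouse. In such tissue RNA, fewer cells of a type and less RNA per cell cannot be told apart.

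NFIL3 is a transcriptional repressor related to the PAR-bZIP factors. It binds the same DNA element, the D-box, as the activators HLF, TEF and DBP, so that the balance between repressor and activators sets the output of shared target genes. In liver these factors are known for linking the circadian clock to genes of detoxification and lipid handling. In the immune system NFIL3 is known for its role in the development of natural killer (NK) cells, other innate lymphoid cells (ILC) and conventional dendritic cells of type 1.

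Signals are log2 values of normalized probe intensity, so that a difference of 1 is a 2-fold change. The 10 arrays had medians within the range of 4.65 to 4.77 seen over all arrays of the series. An array correlated on average at 0.979 to 0.982 with arrays of its own genotype and at 0.978 to 0.982 with arrays of the other. Every array except WT replicate 5 correlated slightly more with its own genotype. In a principal component analysis of the 10 arrays, the genotypes overlapped on axis 1 (17.3% of the variance). They were apart on axis 2 (13.6%), with WT arrays between 4.77 and 16.4 and NFIL3 KO arrays between -18.5 and 1.99. All 12 defining markers of hepatocytes had signals above the median of all genes, and their mean over the list lay between 11.4 and 11.7 in NFIL3 KO livers and between 11.5 and 11.6 in WT livers. No batch, litter or day is given in the labels.

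Few single genes passed the threshold between the livers of the 2 genotypes. Of 22180 genes tested with limma, 5 passed a Benjamini-Hochberg adjusted p of 0.05 as higher in NFIL3 KO livers (0.0225% of the genes tested) and 0 passed as lower (0.0%). The 5 were Slc17a1, Osbpl3, Nat8, Nat8f3 and Mir1945. At an unadjusted p under 0.05 there were 641 genes higher (2.89%) and 543 lower (2.45%), together 5.34% of all genes. The 5 NFIL3 KO arrays lay wholly above the 5 WT arrays in 136 genes (0.613%) and wholly below them in 137 genes (0.618%), and these included all 5 genes called. Both directions together made 1.23% of genes. Shuffled genotype labels would separate 5 arrays from 5, in either direction, with a probability of 0.00794 (exact two-sided permutation). Absence of overlap alone is therefore weak evidence for a single gene among so many. Differences ran between -1.67 and 1.52, the median over all genes was 0.00, and 12 genes differed by at least 1 log2 unit. The median standard error (SE) of a difference was 0.124. Fitted to the 10 vehicle arrays alone, 3 genes passed as higher (Slc17a1, Osbpl3 and Auh) and 0 as lower. Without 1 tunicamycin array that stood out for Osbpl3, NFIL3 KO replicate 3, 6 passed as higher and 1 as lower.

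**Figure D1:**
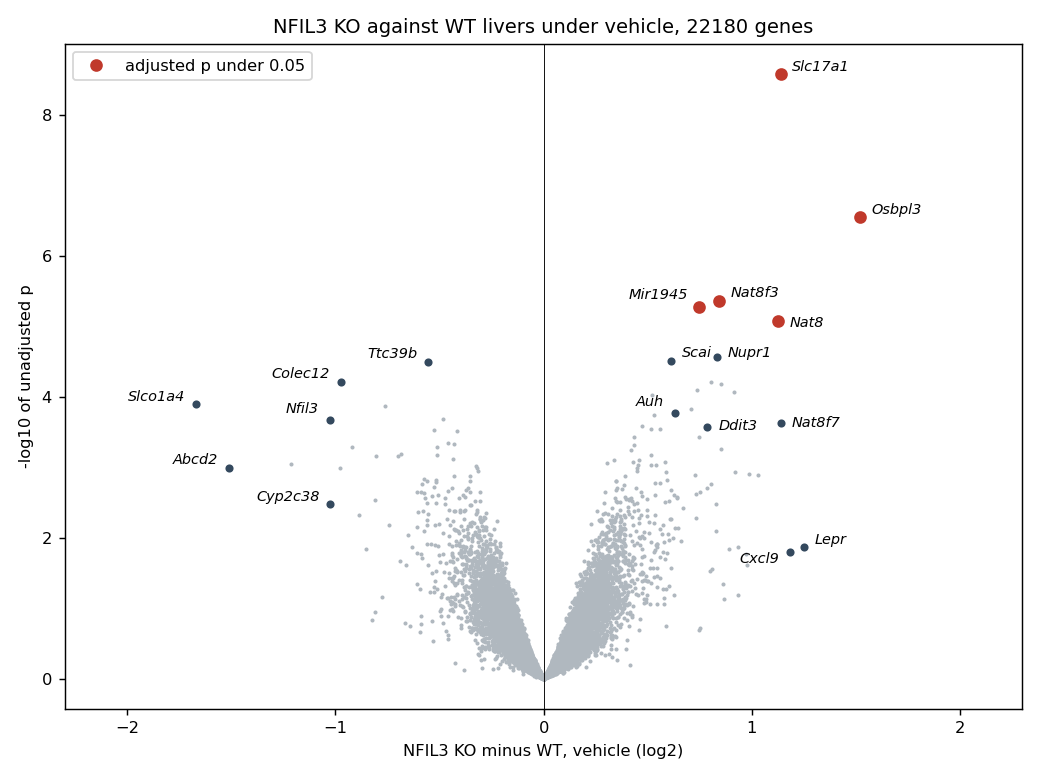
Difference of NFIL3 KO minus WT livers under vehicle (x axis, log2) against -log10 of the unadjusted p (y axis) for 22180 genes, 1 point per gene. The 5 red points passed the adjusted threshold and all lie to the right of 0, while Slco1a4 and Nfil3, labelled in dark blue on the left, did not pass.

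Nfil3 itself was checked first. Its signal was 5.70, 5.53, 5.35, 5.30 and 5.18 in NFIL3 KO livers, against 6.25, 5.79, 6.95, 6.71 and 6.50 in WT livers. Every NFIL3 KO array lay below every WT array, by a gap that was narrow next to WT replicate 2. The means were 5.41 ± 0.20 in NFIL3 KO livers and 6.44 ± 0.45 in WT livers (SD, n = 5 each), a difference of -1.03 ± 0.23 (SE) with an adjusted p of 0.227 in limma, so the targeted gene did not pass the threshold under vehicle. In the tunicamycin mice the same probeset gave 5.25 ± 0.46 in NFIL3 KO livers and 8.00 ± 0.47 in WT livers, a difference of -2.75 ± 0.23 with an adjusted p of 4.09e-07. The place of its probes relative to the deletion is not given in the sources used here, so the signal left in NFIL3 KO livers cannot be assigned to intact transcript.

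The PAR-bZIP activator genes gave small differences. Hlf averaged 7.34 ± 0.23 in NFIL3 KO livers and 7.51 ± 0.15 in WT livers, a difference of -0.17 with a 95% confidence interval of -0.47 to 0.12. Tef differed by -0.07 (interval -0.27 to 0.12). Dbp differed by -0.02 (interval -0.50 to 0.46), with its sign turned to 0.00 after cyclic loess scaling. Of 14 measured core clock genes 0 were called and 0 reached an unadjusted p under 0.05 (median difference -0.04), with differences between -0.19 for Ciart, a clock-controlled repressor, and 0.06.

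The most clearly separated gene was Slc17a1, which encodes a sodium-dependent phosphate and organic anion transporter of liver and kidney. It gave 8.08, 7.83, 8.29, 8.20 and 8.56 in NFIL3 KO livers, against 6.92, 7.09, 7.20, 6.84 and 7.21 in WT livers. The lowest NFIL3 KO array stood well above the highest WT array. Slc17a1 rose by 1.14 ± 0.12 log2 units (SE), 2.20-fold, with an adjusted p of 5.80e-05 in limma. In the tunicamycin mice, which share no array with the vehicle mice, its signal was 8.28 ± 0.14 in NFIL3 KO livers and 6.85 ± 0.14 in WT livers, a difference of 1.43 ± 0.12 with an adjusted p of 4.01e-07. The 2 differences were 0.30 ± 0.17 apart, and that gap did not pass (adjusted p = 1.00 for the interaction).

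Slc17a1 lies on chromosome 13, the chromosome of Nfil3, and stands 216 places before Nfil3 in the order of measured genes. Its family neighbours on the chromosome did not pass. Slc17a2 differed by 0.13 (95% interval -0.12 to 0.38), Slc17a3 by -0.00 (interval -0.29 to 0.28) and Slc17a4 by 0.40 (interval -0.07 to 0.87). Among the 9 measured genes of the Slc17 family, Slc17a8, a vesicular glutamate transporter on chromosome 10, came closest to Slc17a1, with 7.06 ± 0.27 in NFIL3 KO livers and 6.27 ± 0.58 in WT livers (difference 0.78 ± 0.22, adjusted p = 0.510). In the tunicamycin mice Slc17a8 passed, with a difference of 1.13 ± 0.22 (adjusted p = 0.0310 in limma). These relatives were looked at because Slc17a1 had been called.

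A start window of Slc17a1 holds a match to the D-box letters that were searched. RefSeq gives 2 start sites, and windows of 250 bases before to 50 bases after each were searched on both strands for TTATGTAA or TTACGTAA, the first also read as TTACATAA on the other strand. The window at chr13:23868768-23869067 (GRCm38.p6, plus strand) held 1 match, in capitals here, which begins 55 bases before the start site, and the other window held 0.
Slc17a1: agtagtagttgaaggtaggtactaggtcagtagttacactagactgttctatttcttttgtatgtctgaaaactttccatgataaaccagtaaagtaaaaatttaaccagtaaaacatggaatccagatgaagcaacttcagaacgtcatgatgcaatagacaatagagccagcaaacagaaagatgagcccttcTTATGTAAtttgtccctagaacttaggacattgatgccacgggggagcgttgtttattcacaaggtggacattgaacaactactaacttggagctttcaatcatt
Of 32851 such windows in RefSeq, 1.06% hold a match, and of 16990 measured genes with a window 197 do (1.16%). Slc17a1 was the 1 gene with a match among the 4 called genes that had a window. Among genes at an unadjusted p under 0.05, a match was found in 10 of 474 that were higher in NFIL3 KO livers (2.11%) and in 2 of 439 that were lower (0.456%). The 2 lower genes were Ces1b, a carboxylesterase, and Olfr675, an olfactory receptor. Over all 197 genes with a match the median difference was 0.00, against -0.00 over the 16793 without one. Among the 10 higher genes, Ephx4, Scn1a, Lrrtm3, Spata45, Olfr651, A930019D19Rik and Olfr141 had means under the median of all genes, 5.03, in either group. Olfr675 on the lower side lay under it too. The higher genes also held Ptgds, a prostaglandin D synthase (difference 0.61 ± 0.20, adjusted p = 0.639), and Rabggtb, a subunit of the Rab prenylating enzyme (0.67 ± 0.21, adjusted p = 0.591). In the tunicamycin mice Ptgds differed by 0.56 and Rabggtb by -0.11 (adjusted p = 0.388 and 0.920 in limma). Both were picked after their values were seen. A match is a description of the sequence and not evidence of binding.

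Osbpl3 showed the largest rise of all genes. It encodes an oxysterol-binding protein-related protein that carries lipids between membranes. Its signal was 5.80, 5.65, 5.54, 6.34 and 6.48 in NFIL3 KO livers, against 4.38, 4.69, 4.40, 4.47 and 4.25 in WT livers. All 5 NFIL3 KO arrays stood above the WT arrays, with replicates 4 and 5 highest. The means were 5.96 ± 0.42 in NFIL3 KO livers and 4.44 ± 0.16 in WT livers (SD, n = 5 each), a rise of 1.52 ± 0.21 (SE), 2.87-fold, with an adjusted p of 0.00311. The other 9 measured Osbpl genes differed by -0.10 to 0.15 and none reached an unadjusted p under 0.05. In tunicamycin-treated mice Osbpl3 was at 4.66 ± 0.49 in NFIL3 KO livers and 4.30 ± 0.31 in WT livers, and that difference of 0.36 ± 0.21 did not pass (adjusted p = 0.639). There NFIL3 KO replicate 3 stood at 5.52 and the other 4 between 4.31 and 4.54. The difference under tunicamycin minus that under vehicle was -1.17 ± 0.30 and missed the threshold (adjusted p = 0.665).

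A run of Nat8 genes on chromosome 6 held 2 of the 5 calls. Nat8 encodes an N-acetyltransferase of the endoplasmic reticulum that completes the formation of mercapturic acids, and Nat8f3 and Nat8f7 are relatives of it. Nat8 gave 6.95, 6.96, 7.34, 7.15 and 7.07 in NFIL3 KO livers, against 5.98, 5.83, 5.38, 6.53 and 6.12 in WT livers. It rose by 1.13 ± 0.20 (SE), 2.18-fold, with an adjusted p of 0.0373. Nat8f3 gave 5.63, 6.24, 5.85, 5.94 and 5.82 in NFIL3 KO livers, against 4.84, 5.33, 4.66, 5.35 and 5.09 in WT livers. It rose by 0.84 ± 0.14, 1.80-fold, with an adjusted p of 0.0291. Nat8f7 averaged 6.27 ± 0.58 in NFIL3 KO livers and 5.13 ± 0.37 in WT livers, a difference of 1.14 ± 0.26 that did not pass (adjusted p = 0.239), although its arrays did not overlap either. Nat8 was lost from the calls when any 1 of 9 of the 10 arrays was left out, WT replicate 4 being the exception, and Nat8f3 when any 1 of 6 was (NFIL3 KO replicates 2, 3 and 4 and WT replicates 1, 3 and 5).

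The same locus held Nat8 genes without such differences. In the order of measured genes Nat8f7, Nat8f3 and Nat8 come first, with the dim pseudogene Alms1-ps2 before Nat8. They are followed by Nat8f2 with a difference of -0.15 ± 0.21, Nat8f4 with -0.12 ± 0.10 and Nat8f1 with -0.04 ± 0.12. RefSeq places Nat8f6 and Nat8f5 between Nat8f3 and Nat8, but neither was measured by a probeset of its own. The genes outside the run, Alms1 and Tprkb, differed by 0.01 and -0.01. Another 2 probesets that list several Nat8f genes, and so belong to no single one, differed by 0.94 ± 0.26 and 1.14 ± 0.26 (adjusted p = 0.504 and 0.337 over all probesets). Probes of such near-identical copies can share targets, so the separate values of Nat8, Nat8f3 and Nat8f7 are uncertain. Among tunicamycin mice Nat8 differed by 1.11 ± 0.20 (adjusted p = 0.0117), Nat8f3 by 0.39 ± 0.14 (adjusted p = 0.375) and Nat8f7 by 0.37 ± 0.26 (adjusted p = 0.722).

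The upstream start of Nat8 and the start of Nat8f3 share a long exact run, and both are printed for that reason. RefSeq gives 10 start windows for 8 genes of the run. Among 43 pairs of windows of different genes, 2 shared an exact run of 30 bases or more, 146 bases in Nat8f7 and Nat8f6 and 100 bases in Nat8f3 and the upstream start of Nat8. The next longest run was 13 bases. The shared run is in capitals (GRCm38.p6, minus strand, Nat8 at chr6:85836808-85837107 and Nat8f3 at chr6:85765695-85765994).
Nat8: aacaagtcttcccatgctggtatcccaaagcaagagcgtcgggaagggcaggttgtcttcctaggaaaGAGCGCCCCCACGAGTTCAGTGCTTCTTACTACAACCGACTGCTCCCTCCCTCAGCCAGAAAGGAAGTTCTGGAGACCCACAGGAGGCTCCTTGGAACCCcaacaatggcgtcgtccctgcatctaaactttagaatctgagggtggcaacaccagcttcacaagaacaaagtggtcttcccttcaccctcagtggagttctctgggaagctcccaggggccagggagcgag
Nat8f3: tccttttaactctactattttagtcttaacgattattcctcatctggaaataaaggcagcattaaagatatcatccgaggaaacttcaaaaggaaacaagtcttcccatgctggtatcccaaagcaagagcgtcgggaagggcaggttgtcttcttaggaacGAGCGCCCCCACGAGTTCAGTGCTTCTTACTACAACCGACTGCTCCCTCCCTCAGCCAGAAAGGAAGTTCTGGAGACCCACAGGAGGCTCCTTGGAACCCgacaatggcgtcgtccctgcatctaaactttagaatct
It starts 182 bases before the start site in Nat8 and 88 bases before it in Nat8f3. Neither window holds a match to the D-box letters searched.

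The fifth gene called was Mir1945, a microRNA gene on chromosome 16. It lies outside the rule by which genes were named, which left out small RNAs, and is given because it was called. Its signal was 6.03, 6.13, 5.82, 5.85 and 5.91 in NFIL3 KO livers, against 5.32, 5.52, 4.96, 5.07 and 5.13 in WT livers. All NFIL3 KO arrays lay above the WT arrays. The probeset can read the precursor or a longer transcript, so it does not measure the mature microRNA. Mir1945 rose by 0.75 ± 0.12 (SE), 1.68-fold, with an adjusted p of 0.0291, and it was lost from the calls without any 1 of 8 arrays, all but NFIL3 KO replicate 4 and WT replicate 2. In the tunicamycin mice the difference was 0.18 ± 0.12 (adjusted p = 0.718). RefSeq places the mature microRNA at chr16:11254381-11254402 (GRCm38.p6, minus strand), shown with its seed, bases 2 to 8, in capitals.
mmu-miR-1945: uCUUCGCGgguacugucgggac
No other of the 1738 mature mouse microRNAs listed has this seed.

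**Figure D2:**
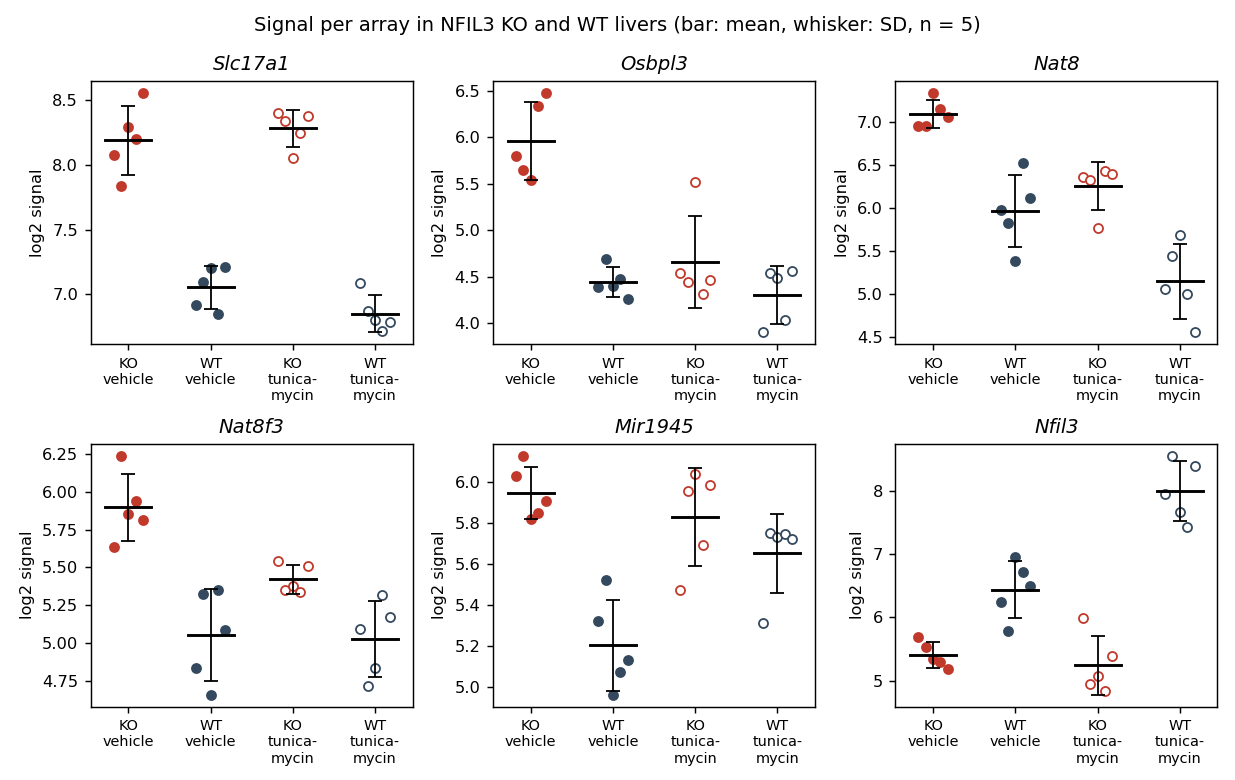
Signal (log2) of the 5 called genes and of Nfil3 in each array, by genotype and treatment, with NFIL3 KO in red, WT in dark blue, vehicle as filled and tunicamycin as open points; the bar is the mean and the whisker the SD of 5 mice. Slc17a1 is near 8 in NFIL3 KO livers and near 7 in WT livers in both treatments, whereas the genotypes overlap for Osbpl3 in the tunicamycin mice.

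At the level of probesets, 5 of 41345 were called higher in NFIL3 KO livers (0.0121%) and 1 lower (0.00242%). Those of Slc17a1 and Osbpl3 were among them and the other 4 carry no gene symbol in the annotation, while Nat8, Nat8f3 and Mir1945 did not pass among so many tests. Probeset 17292632 had the largest difference on the array. It gave 7.46, 8.10, 9.11, 8.42 and 9.16 in NFIL3 KO livers, against 4.62, 4.22, 5.60, 5.64 and 4.55 in WT livers. It rose by 3.52 ± 0.35 (SE), 11.5-fold, with an adjusted p of 0.000133, and in the tunicamycin mice the difference was 4.77 ± 0.35, with 10.5 ± 0.56 in NFIL3 KO livers and 5.70 ± 0.44 in WT livers. Probeset 17352601 averaged 5.57 ± 0.84 in NFIL3 KO livers and 3.66 ± 0.22 in WT livers, a rise of 1.91 ± 0.31 (adjusted p = 0.0467). A further unnamed probeset averaged 6.65 ± 0.68 in NFIL3 KO livers and 4.90 ± 0.53 in WT livers, a rise of 1.75 ± 0.29 (adjusted p = 0.0467). Probeset 17203303 was lower, at 1.14 ± 0.13 in NFIL3 KO livers and 2.12 ± 0.27 in WT livers, both dim signals, and fell by 0.98 ± 0.13 (adjusted p = 0.00562). In the tunicamycin mice probeset 17352601 differed by 0.32 ± 0.31 and the further unnamed probeset by 0.43 ± 0.29 (adjusted p = 0.829 and 0.741 in limma). Probeset 17203303 differed there by 0.07 ± 0.13 (adjusted p = 0.929 in limma), so its fall was not seen.

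Auh, the gene next to Nfil3 on chromosome 13, encodes a hydratase of leucine breakdown. It gave 7.11, 7.005, 7.04, 7.18 and 7.08 in NFIL3 KO livers, against 6.59, 6.39, 6.51, 6.40 and 6.36 in WT livers. Its groups were tight and far apart, but the difference of 0.63 ± 0.14 missed the threshold (adjusted p = 0.207) in the fit that shares 1 estimate of spread across all 20 arrays. Fitted to the 10 vehicle arrays alone Auh passed, with an adjusted p of 0.0201, and it also passed with array weights (0.0415) and without NFIL3 KO tunicamycin replicate 3 (0.0283). With tunicamycin Auh was at 8.16 ± 0.34 in NFIL3 KO livers and 5.97 ± 0.29 in WT livers, a difference of 2.19 ± 0.14 (adjusted p = 4.85e-09). The difference between genotypes was larger under tunicamycin by 1.56 ± 0.20 (adjusted p of the interaction = 0.00167). Of 21 measured genes of leucine and branched-chain catabolism, Auh among them, 0 were called, and the list had a median difference of -0.03.

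No gene around Nfil3 was called. Among the 20 measured genes nearest to it, 10 on each side, 0 were called and 2 reached an unadjusted p under 0.05, Auh and the predicted gene Gm2762, which lies 3 genes away on the other side (difference 0.37 ± 0.11, adjusted p = 0.600). Within 100 genes on each side 3 were higher and 5 lower at that level among 200. On the whole of chromosome 13 the share was 5.43%, against 5.34% over all genes.

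**Figure D3:**
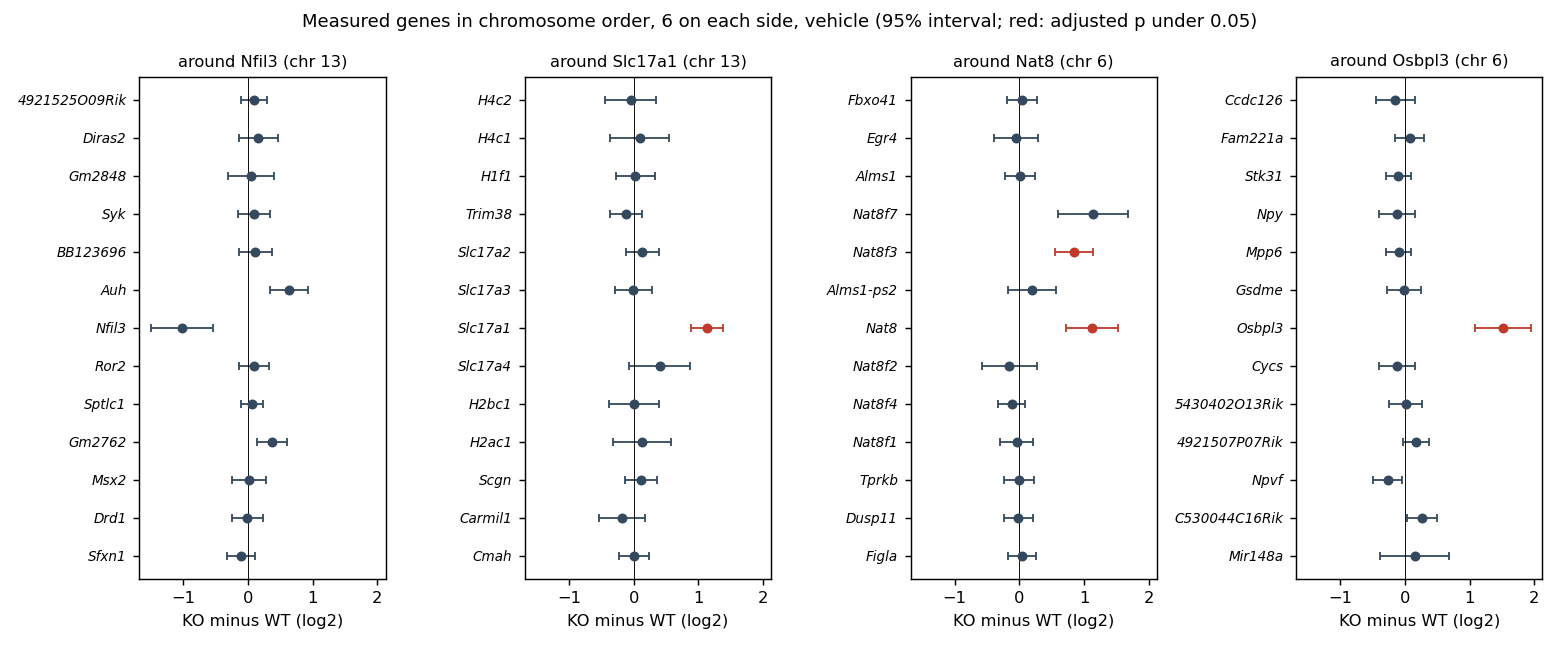
Difference of NFIL3 KO minus WT livers under vehicle (x axis, log2, with 95% confidence interval) for Nfil3, Slc17a1, Nat8 and Osbpl3 and the 6 measured genes on each side, in chromosome order down the page. Nat8f7, Nat8f3 and Nat8 stand apart from 0 at their locus, Slc17a1 and Osbpl3 are the 1 called gene in their windows, with Npvf (-0.27) and C530044C16Rik (0.27) near Osbpl3 also having intervals that leave out 0, and Nfil3 and Auh lie on opposite sides of 0.

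Other genes came near the threshold without passing it. Nupr1, a stress-induced nuclear protein, gave 6.46, 6.11, 6.08, 5.44 and 6.16 in NFIL3 KO livers, against 4.91, 5.39, 5.34, 5.16 and 5.29 in WT livers. The groups did not overlap, and the difference was 0.83 ± 0.16 (adjusted p = 0.0872). It passed in 4 of 20 alternative fits, 1 of them without NFIL3 KO replicate 4 (adjusted p = 0.00591). Scai, which regulates actin-dependent transcription, averaged 7.17 ± 0.22 in NFIL3 KO livers and 6.56 ± 0.12 in WT livers (difference 0.61 ± 0.12, adjusted p = 0.0872). Vnn3, a pantetheinase, averaged 8.65 ± 0.37 in NFIL3 KO livers and 7.91 ± 0.16 in WT livers (0.74 ± 0.15, adjusted p = 0.145). Tspyl2, Pla2g6, Defb35, Lmo4, Ptp4a1 and Smim22 had differences between 0.34 and 0.59 with non-overlapping arrays and adjusted p between 0.150 and 0.396.

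On the lower side, Slco1a4, an organic anion transporter that takes up bile acids and steroid conjugates, had the largest negative difference of all genes. It gave 6.99, 6.94, 6.85, 6.97 and 5.40 in NFIL3 KO livers, against 8.66, 8.83, 7.93, 8.10 and 7.97 in WT livers. The groups did not overlap, and NFIL3 KO replicate 5 stood far below the other NFIL3 KO arrays. The difference was -1.67 ± 0.36, 3.18-fold higher in WT livers, and did not pass (adjusted p = 0.186), and without that array it was -1.36. In the tunicamycin mice Slco1a4 fell by 1.74 ± 0.36 (adjusted p = 0.0399). Its 5 measured Slco1 relatives differed by -0.14 to 0.19.

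Ttc39b, a tetratricopeptide protein linked to high-density lipoprotein levels, averaged 6.25 ± 0.13 in NFIL3 KO livers and 6.80 ± 0.15 in WT livers, a difference of -0.55 ± 0.11 (adjusted p = 0.0872). Colec12, a scavenger receptor, averaged 7.83 ± 0.44 in NFIL3 KO livers and 8.81 ± 0.14 in WT livers, a difference of -0.97 ± 0.20 (adjusted p = 0.134). Abca3, Cyp3a59, Fam25c, Adap2, Smim4, Gstk1, Tmem144, Snupn, Leap2, Aldh1a7 and Pinx1 had differences between -0.92 and -0.32, with adjusted p between 0.240 and 0.529 and no overlap of arrays. Among genes with larger spread, Abcd2, a peroxisomal transporter of very long chain fatty acids, averaged 5.00 ± 0.69 in NFIL3 KO livers and 6.51 ± 1.23 in WT livers (-1.51 ± 0.40, adjusted p = 0.404). Mup-ps12, a pseudogene of the major urinary proteins, differed by -1.21 ± 0.32 (adjusted p = 0.396). Lepr, the leptin receptor, averaged 5.84 ± 0.63 in NFIL3 KO livers and 4.59 ± 0.65 in WT livers (1.25 ± 0.47, adjusted p = 0.757).

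Genes of xenobiotic metabolism, known as targets of PAR-bZIP factors, were then examined. The study singled out 5 from its comparison of the genotypes under ERS, made on the tunicamycin arrays of this series, and these gave no call under vehicle. Gsta3, a glutathione S-transferase, averaged 10.94 ± 0.03 in NFIL3 KO livers and 10.84 ± 0.28 in WT livers (difference 0.10, 95% interval -0.18 to 0.37). Cyp3a11 averaged 11.31 ± 0.10 in NFIL3 KO livers and 10.99 ± 0.30 in WT livers (0.32, interval 0.04 to 0.59, adjusted p = 0.840). Adh1 differed by 0.23, Fmo5 by 0.10 and Ugt2b1 by -0.06, none of them called. At an unadjusted p under 0.05 in limma, 2 of the 5 were higher and 0 lower (all genes 2.89% and 2.45%). Under tunicamycin, where these genes had been chosen, Gsta3 differed by 0.91 ± 0.13 (adjusted p = 0.00144) and Cyp3a11 by 0.64 ± 0.13 (adjusted p = 0.0399), and the interaction passed for neither (adjusted p = 0.494 for Gsta3 and 1.00 for Cyp3a11).

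Of 36 measured phase I cytochrome P450 genes 0 were called, and at an unadjusted p under 0.05 there were 4 higher and 9 lower (all genes 2.89% and 2.45%). The median difference was -0.09. Of the 9 lower, 6 belong to the Cyp2c family, which metabolizes drugs, steroids and fatty acids. The family was then taken whole, after these values had been seen. Of its 15 measured genes 13 had negative differences, with a median of -0.34. The median kept its sign under every scaling tried. Without each array in turn it ran between -0.45 without WT replicate 3 and -0.23 without NFIL3 KO replicate 5. These checks use the same arrays in which the family was picked, so they are no separate reading of it. Cyp2c38 averaged 6.51 ± 0.74 in NFIL3 KO livers and 7.54 ± 0.45 in WT livers (-1.02 ± 0.31, adjusted p = 0.548), and Cyp2c40 averaged 5.51 ± 0.44 in NFIL3 KO livers and 6.25 ± 0.61 in WT livers (-0.74 ± 0.25, adjusted p = 0.666). The family mean per array lay between 7.10 and 7.48 in NFIL3 KO livers and between 7.26 and 7.96 in WT livers, and so overlapped. In the tunicamycin mice the differences of the family ran between -0.68 for Cyp2c40 and 0.10 for Cyp2c70, with Cyp2c38 at -0.38. None of them passed there. Probes of Cyp2c genes can be shared, so these genes are not separate measurements. Cyp2a5, the coumarin hydroxylase and a reported target of the PAR-bZIP factors, averaged 5.28 ± 0.36 in NFIL3 KO livers and 6.09 ± 0.63 in WT livers (-0.81 ± 0.24, adjusted p = 0.537). Of 11 measured targets reported for NFIL3 or the PAR-bZIP factors, Cyp2a5 was the 1 lower at an unadjusted p under 0.05 and 2 were higher, Fgf21 and Nampt, the enzyme that makes nicotinamide mononucleotide (0.28, adjusted p = 0.823). The median of these targets was 0.02 and 0 were called.

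Among 52 phase II and other xenobiotic enzymes 0 were called, with 4 higher and 8 lower at an unadjusted p under 0.05 (all genes 2.89% and 2.45%). The median was -0.07, and it ran between -0.11 without WT replicate 3 and -0.03 without WT replicate 1. Nnmt, nicotinamide N-methyltransferase, averaged 7.11 ± 0.51 in NFIL3 KO livers and 8.00 ± 0.24 in WT livers (-0.89 ± 0.28, adjusted p = 0.626). Gstt3, a glutathione S-transferase, averaged 5.94 ± 0.46 in NFIL3 KO livers and 6.74 ± 0.32 in WT livers (-0.81 ± 0.20, adjusted p = 0.366). Aldh2, the mitochondrial aldehyde dehydrogenase, averaged 10.2 ± 0.26 in NFIL3 KO livers and 9.76 ± 0.20 in WT livers (0.44 ± 0.13, adjusted p = 0.548). Of 21 genes that are higher in female than in male liver 1 was higher and 5 were lower at that level (all genes 2.89% and 2.45%), the 5 being Abcd2, Tox, Cyp2c40, Cyp2c69 and Cyp2g1. Of 21 male-biased genes 0 reached that level, and the lists were not tested against each other.

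Genes of hepatic identity gave no call. LIVER-ID genes are those that the study defined by a broad promoter histone mark found preferentially in liver. Of the 492 measured, 0 were called, 15 were higher and 17 lower at an unadjusted p under 0.05 (all genes 2.89% and 2.45%), and the median difference was -0.01. Of 38 LIVER-ID TFs 0 were called, with a median of -0.01. Of 517 UBQ genes, whose broad mark in liver was also found in other tissues, 0 were called and the median was 0.02. The Core Enrichment genes came from the comparison of the genotypes under ERS in the study, and the 26 measured had a median of 0.01 and 0 calls. Of these 26, 2 were higher and 0 lower at an unadjusted p under 0.05 (all genes 2.89% and 2.45%).

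Lipid genes gave no call. Of 20 measured genes of cholesterol synthesis and uptake 19 had negative differences, while 49.6% of all genes had positive ones, and none reached an unadjusted p under 0.05. Their differences ran between -0.28 for Mvk, mevalonate kinase, and 0.07 for Insig2, with a median of -0.16 that ran between -0.30 without NFIL3 KO replicate 5 and -0.10 without WT replicate 1. The list mean per array was 8.75 to 9.43 in NFIL3 KO livers and 8.90 to 9.40 in WT livers. The arrays of the genotypes thus overlapped over nearly their whole range. Genes of fatty acid oxidation had a median of -0.01 (23 genes) and those of fatty acid and triglyceride synthesis a median of -0.01 (26 genes). Cyp7a1, which catalyses the first step in making bile acids, differed by -0.53 ± 0.50 (adjusted p = 0.984).

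A few genes of the unfolded protein response (UPR) had higher means in NFIL3 KO livers without passing the threshold, in mice that had received no ERS inducer. Ddit3, which encodes the stress factor CHOP, gave 7.54, 6.84, 6.73, 6.59 and 6.08 in NFIL3 KO livers, against 5.83, 6.05, 5.84, 6.21 and 5.93 in WT livers. The groups overlapped at a single NFIL3 KO array, replicate 5, and the difference of 0.79 ± 0.18 did not pass (adjusted p = 0.240). Creld2, a secreted ER stress protein, averaged 9.55 ± 0.37 in NFIL3 KO livers and 9.01 ± 0.28 in WT livers (0.54 ± 0.14, adjusted p = 0.396). Derl3, of ER-associated degradation, averaged 7.15 ± 0.53 in NFIL3 KO livers and 6.39 ± 0.55 in WT livers (0.75 ± 0.22, adjusted p = 0.515). Fgf21, a hormone induced by stress and fasting, averaged 6.21 ± 1.21 in NFIL3 KO livers and 5.23 ± 0.42 in WT livers (0.98 ± 0.40, adjusted p = 0.822), and replicate 5 alone reached 8.31.

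No list of ERS genes held a called member. UPR sensors and factors had 2 of 13 members higher at an unadjusted p under 0.05, ATF4 and CHOP targets 4 of 23, ER chaperones 1 of 23 and ER-associated degradation 2 of 18, with 0 lower and 0 called in any of the 4 lists (all genes 2.89% higher and 2.45% lower at that level). Their medians were 0.02, 0.01, 0.04 and 0.06. The mean per array of UPR sensors and factors was 7.87 to 8.09 in NFIL3 KO livers and 7.75 to 7.85 in WT livers, without overlap. For the other lists of these 4 the array means overlapped. Hspa5, the central ER chaperone, differed by 0.00 ± 0.10. In the tunicamycin mice Nupr1 differed by -0.12 ± 0.16, Ddit3 by -0.13 and Creld2 by -0.06, and the interaction passed for none of them.

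Genes of the immediate early response and of inflammation gave no call. Of 19 immediate early genes 17 had positive differences (49.6% of all genes did), with a median of 0.22, 0 calls and 1 member at an unadjusted p under 0.05. The list mean per array was 6.21 to 6.30 in NFIL3 KO livers and 5.82 to 6.20 in WT livers, so these ranges missed each other by a narrow gap, while no single gene passed. The list of UPR sensors and factors showed such a gap too. With 58 lists looked at, gaps of this kind can arise by chance. Of 20 NF-kB targets and chemokines 18 had positive differences, with a median of 0.19 and 0 calls, and the array means of 5.60 to 6.16 in NFIL3 KO livers and 5.39 to 5.78 in WT livers overlapped. Cxcl9, a chemokine induced by interferon gamma, averaged 9.28 ± 1.38 in NFIL3 KO livers and 8.09 ± 0.54 in WT livers (1.18 ± 0.45, adjusted p = 0.798), and its NFIL3 KO arrays ran between 8.12 and 11.6.

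Markers of NK cells, which depend on NFIL3, were mostly dim in these livers. Of 27 measured markers of NK cells and ILC1, 6 had a signal above the median of all genes, 0 were called, 15 had positive differences, and the differences ran between -0.23 for Klrc1, a receptor of NK cells, and 0.37 for Ccl5, with a median of 0.01. At an unadjusted p under 0.05 there were 2 higher, Ccl5 and Eomes, and 0 lower. Their mean per array was 4.20 to 4.34 in NFIL3 KO livers and 4.17 to 4.23 in WT livers. Ccl5, a chemokine of cytotoxic lymphocytes, averaged 5.94 ± 0.29 in NFIL3 KO livers and 5.57 ± 0.23 in WT livers (0.37 ± 0.16, adjusted p = 0.842). Eomes, a factor of NK cells, averaged 3.45 ± 0.14 in NFIL3 KO livers and 3.18 ± 0.15 in WT livers (0.27 ± 0.11, adjusted p = 0.839). The 13 markers of conventional dendritic cells of type 1 had a median difference of 0.02 and the 14 of ILC progenitors, ILC2 and ILC3 a median of -0.04, with 0 calls. Markers of Kupffer cells and macrophages (20 genes, median 0.12), monocytes and neutrophils (18, 0.11), T cells (16, 0.04), B cells and plasma cells (15, 0.03), sinusoidal endothelium (21, -0.04), stellate cells and fibroblasts (17, -0.10) and cholangiocytes (11, 0.06) gave 0 calls as well. The Kupffer cell median ran between -0.00 without WT replicate 4 and 0.27 without WT replicate 3, and that of stellate cells and fibroblasts between -0.15 without WT replicate 4 and -0.00 without WT replicate 3.

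**Figure D4:**
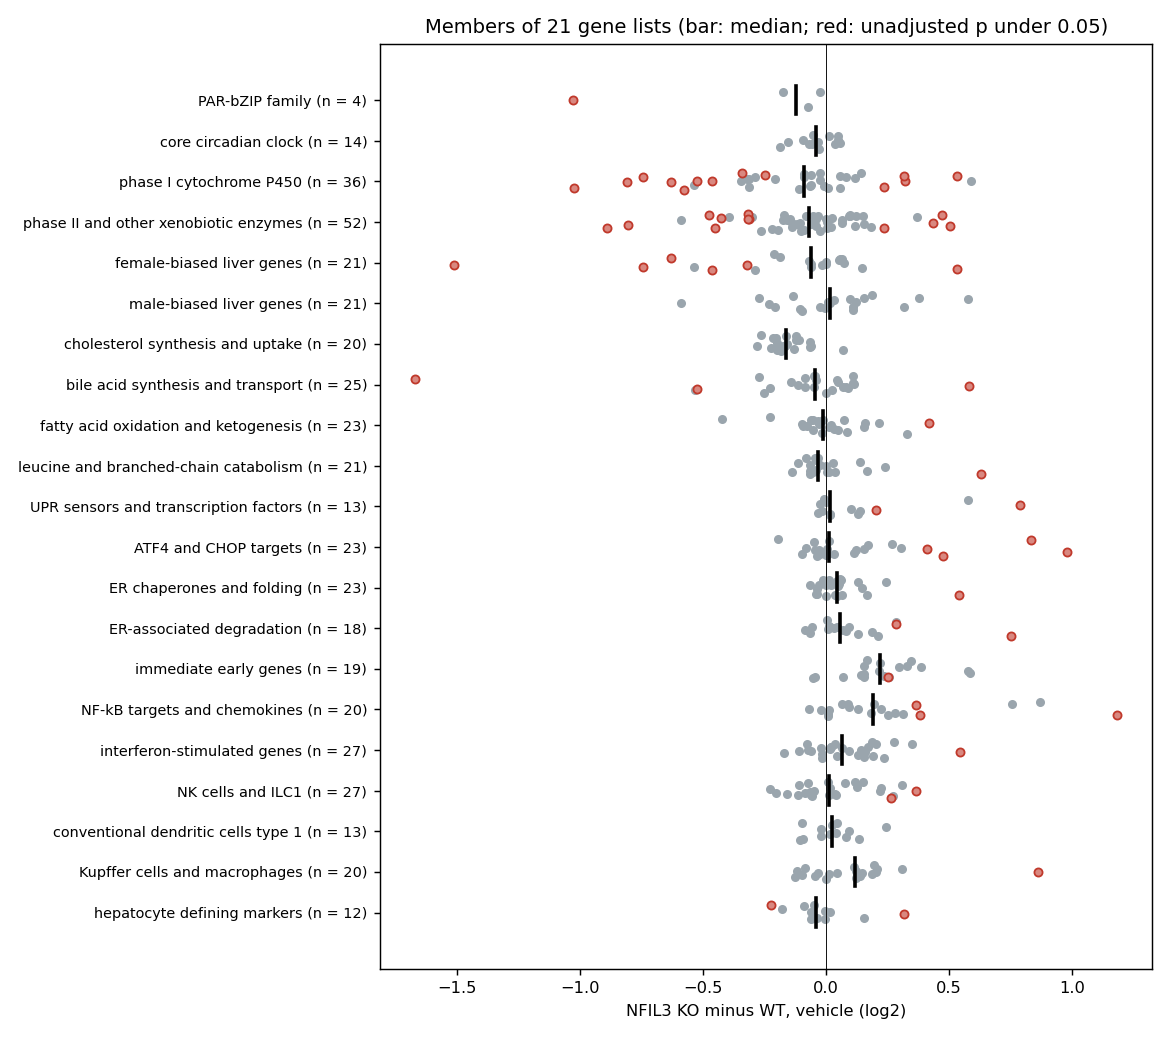
Difference of NFIL3 KO minus WT livers under vehicle (x axis, log2) for each measured member of the gene lists (rows), with members at an unadjusted p under 0.05 in red and the list median as a bar. No member of these lists, nor of any of the 58 examined, passed the adjusted threshold, and the medians lie between -0.16 for cholesterol synthesis and 0.22 for immediate early genes.

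The tunicamycin mice gave a second reading of the genotype in other animals. There 54 genes were called between NFIL3 KO and WT livers (0.243%), 39 higher and 15 lower, and 2 of them, Slc17a1 and Nat8, were also called under vehicle. All 5 genes called under vehicle were higher in NFIL3 KO livers under tunicamycin too. Of the 641 genes higher under vehicle at an unadjusted p under 0.05, 68.2% were also higher under tunicamycin, and of the 543 lower 69.6% were also lower, against 56.7% of all genes with the same sign. The difference between treatments itself passed for Auh and for Adra1b, the alpha-1B adrenergic receptor. Adra1b averaged 8.14 ± 0.23 in NFIL3 KO livers and 8.08 ± 0.14 in WT livers under vehicle (0.06 ± 0.12), and differed by 1.12 ± 0.12 under tunicamycin (adjusted p of the interaction = 0.0171).

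**Figure D5:**
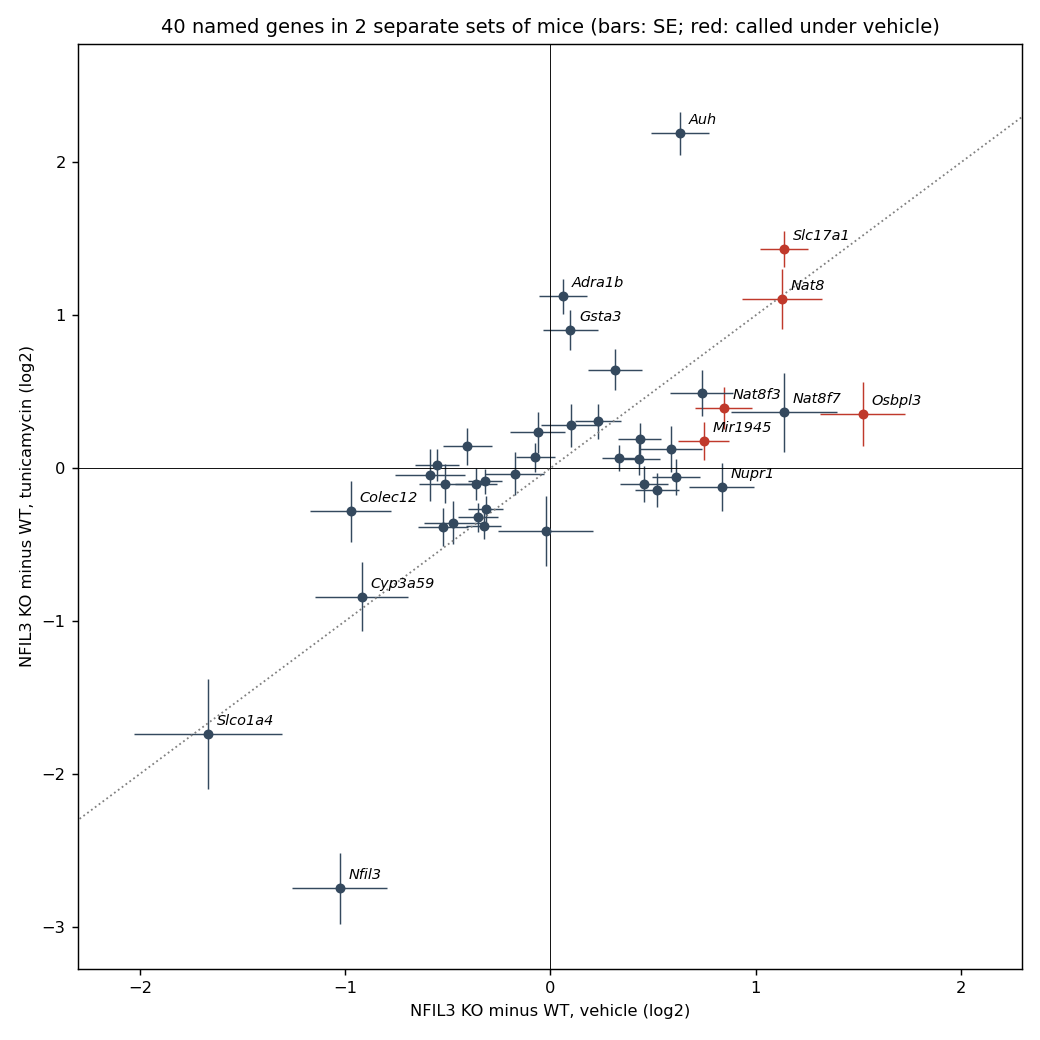
Difference of NFIL3 KO minus WT livers under vehicle (x axis, log2) against the same difference under tunicamycin (y axis, log2) for 40 named genes, with SE bars and the line of equality dotted; genes called under vehicle are red. Slc17a1, Nat8 and Slco1a4 differ about as much under either treatment, Auh and Nfil3 are farther from 0 under tunicamycin, and Osbpl3 and Nupr1 are nearer to 0.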

How the data were processed

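The authors hybridised liver RNA to Affymetrix MoGene-2_0-st arrays and deposited log2 signals made by RMA in Partek Genomics Suite: background correction, quantile normalization and median polish over the probes of a probeset. Quantile normalization brings the arrays to like distributions, so a shift shared by most genes would largely be removed. The deposited array medians still ran between 4.65 and 4.77. No scanner files were used here. Precision depends on how many arrays there are and on how far a gene varies between mice.

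Of 41345 probesets, 23521 had 1 gene symbol, 1820 several and 16004 none in the platform annotation. Probesets of 1 symbol were averaged into 22180 genes, of which 22139 matched RefSeq (GRCm38.p6). Groups were taken from the titles and characteristics in the labels. All 20 arrays were fitted in limma 3.58.1 (R 4.3.3) with a mean for each of 4 groups and moderated variances, and NFIL3 KO minus WT was tested under vehicle, under tunicamycin and between treatments, with Benjamini-Hochberg adjustment over all genes at 0.05 and 95% confidence intervals. The p-values set a difference of group means against the spread between mice within groups. That spread was estimated over all 4 groups together. The fit was also run on simulated data with 200 changed genes. There the genes were independent and each had the same spread in every group, which need not hold for the real arrays. It is therefore no check of the calls made here. Dim signals were kept and left out as an alternative; others changed the arrays, block, scaling, probeset rule, variance model and size of change.

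Named were Nfil3, Hlf, Tef, Dbp, Auh, the 5 xenobiotic genes, every called gene with non-overlapping arrays up to 15 in a direction, filled up with non-overlapping genes of smallest p and a signal above the median, up to 3 genes of each list, and genes called in the interaction. Predicted genes and small RNAs were left out. Other genes named were chosen after their values were seen. The comparison and its 58 lists were chosen with earlier results of these data known. Lists are described by counts and medians, with no set test.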

Additional observations from a re-analysis of the deposited data

Results flagged for a closer look

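A single array stood far from the other 4 of its group in 10 of 210 groups of arrays looked at, and chance gives about 1 in 20. The gap to its nearest neighbour was over 0.71 of the group's range in each.

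Slco1a4 was at 5.40 in NFIL3 KO replicate 5, and the other NFIL3 KO arrays began at 6.85. Fgf21 reached 8.31 in the same NFIL3 KO array, with 6.12 as the next highest, and 5.97 in WT replicate 5, with 5.17 as the next. Abcd2 was at 6.19 in NFIL3 KO replicate 1 and at most 4.89 in the other NFIL3 KO arrays. Mup-ps12 was at 7.44 in NFIL3 KO replicate 4, with 6.16 as the next highest.

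In WT livers, Cxcl9 was at 9.03 in replicate 3 and at most 8.04 in the others. Ttc39b was at 7.05 in WT replicate 1, with 6.79 as the next highest, so the array that stood out lay away from the NFIL3 KO livers. Aldh1a7 was at 10.4 in WT replicate 5, with 10.5 as the next lowest. Cdh1, the epithelial cadherin and a periportal marker, was at 6.07 in WT replicate 2 and at least 6.33 in the other WT arrays. Cyp2g1, a cytochrome P450, was at 4.17 in WT replicate 5 and at least 4.91 in the other WT arrays.

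The difference between genotypes itself differed between treatments for 2 genes. For Auh it was larger under tunicamycin by 1.56 (2.19 under tunicamycin and 0.63 under vehicle, adjusted p of limma's interaction = 0.00167). For Adra1b it was larger by 1.06 (1.12 under tunicamycin and 0.06 under vehicle, adjusted p = 0.0171).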

How the results depend on the processing

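The 5 genes higher and 0 lower stayed at that count with the brightest probeset of each gene or a 1.5-fold minimum, and became 3 and 0 on the 10 vehicle arrays alone, 4 and 0 with arrays centred on their medians, 6 and 1 after cyclic loess, 7 and 1 with dim genes left out, 7 and 0 with a trended robust variance, 8 and 1 with array weights, 1 and 0 with ordinary least squares, 5 and 1 over probesets, and 6 and 1 without NFIL3 KO tunicamycin replicate 3. Leaving out each vehicle array gave 2 to 5 higher and 0 to 1 lower. Slc17a1 kept its call in all 20 alternatives run per gene (adjusted p 5.20e-06 to 0.00747), and Osbpl3 in all but ordinary least squares (0.0773), whereas Nat8 kept it in 7, Nat8f3 in 12 and Mir1945 in 10. Genes that passed only in an alternative were Nupr1, Scai, Auh, Snora73a, Snora73b, Creld2 and Ddit3 as higher and Ttc39b, Trhde and Colec12 as lower. The gained calls Creld2, Nupr1 and Trhde came without NFIL3 KO replicate 4, Ddit3 and Colec12 without NFIL3 KO replicate 5, and both Snora73 genes without NFIL3 KO replicate 2.

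Same-numbered vehicle arrays correlated at -0.01 to 0.10 in their deviations. The labels give no litter or day, so whether the numbers pair the mice is not known. They were not treated as pairs in the main fit. With the replicate block 4 genes were higher and 0 lower (Nat8 was lost).

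Of 40 genes followed, 37 kept their sign throughout. Dbp turned to 0.00 (3.85e-05) after cyclic loess and ran between -0.0759 and 0.0436 without single arrays. Gsta3 ran between -0.00116 (without WT replicate 3) and 0.168, and Adra1b between -0.0207 (without NFIL3 KO replicate 3) and 0.131. The cause of these changes was not tested.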
